A study of Mus musculus with 6 samples.

Results

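Chemokines, interleukins and the receptors of interleukins, LIF and oncostatin M were examined in mDE6, a mouse cell line, after expression of a hairpin against Arl4c. The genes were chosen by symbol: protein-coding genes named Cxcl, Ccl or Cx3cl1, interleukins and interleukin receptors by the pattern of their symbols, and Il1rap, Il1rl1, Il1rl2, Il6st, Lif, Lifr and Osmr. This gave 60 of the 22032 genes of the deposited table, 16 chemokines, 27 receptors and 17 other genes (interleukins, Il1rn and Lif). A further 44 annotated genes that fit the pattern had no row and were not analysed here. RNA was sequenced from 3 libraries of mDE6 with the hairpin shArl4c and 3 of mDE6 with the control hairpin shControl. The labels give mDE6 as a cell line and name no tissue, only 1 Arl4c hairpin group can be told apart, and nothing says whether the libraries of a group came from separate cultures, so p-values measure the spread between these libraries, which may be technical. The reduced level of Arl4c, any further action of the hairpin and differences between cultures cannot be told apart. In RNA from whole cultures, fewer cells of a type and less RNA per cell cannot be told apart either.

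Chemokines are small secreted proteins that attract leukocytes through G protein-coupled receptors, and their subfamilies are named after the spacing of the first cysteines. Interleukins and the related cytokine LIF signal through receptor chains that are often shared: IL1RAP serves several receptors of the IL-1 family, gp130 (the product of Il6st) serves IL-6, LIF and oncostatin M, and IL4RA pairs with IL13RA1 for IL-4 and IL-13. In fibroblasts and osteoblast-lineage cells the gp130 cytokines and IL-1 are known to act on differentiation and on the release of further chemokines.

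Values are CPM, reads per gene divided by a library size that the authors scaled, and are given per library, with libraries numbered as in the deposited table (shArl4c 2, 3 and 4, shControl 1, 2 and 3), or as mean ± SD (n = 3 libraries per group). The libraries held 12316770 to 14976113 reads, so 1 read was worth 0.0672 to 0.0827 CPM, and a count of 0 allows up to 3 reads, 0.202 to 0.248 CPM, counting error only. Tests were run with limma on log2(CPM + 1) for genes that averaged 1 CPM or more across the 6 libraries, with calls made at an adjusted p under 0.05. Log2 fold changes are of CPM + 1, shArl4c over shControl, and understate the change of genes at low levels. Arl4c itself stood at 6.75, 7.42 and 6.89 CPM in shArl4c 2, 3 and 4, against 20.7, 21.0 and 20.1 CPM in shControl 1, 2 and 3. Counts of shArl4c 3 differed more from its group (chi-square per degree of freedom 5.74 and 4.87) than those of any other pair of replicates did (1.54 to 2.30). Of 24 leukocyte marker genes 15 had a row, and their summed level was 17.5 to 18.4 CPM in shArl4c and 13.7 to 15.8 CPM in shControl. Most of that sum came from Cd14 (7.01 ± 0.479 CPM in shArl4c, 6.27 ± 0.259 CPM in shControl) and Cd68. The leukocyte gene Ptprc stood at 0.0505 ± 0.0437 CPM in shArl4c and 0.0940 ± 0.0817 CPM in shControl. Cd68 was the only leukocyte marker of the 4 tested that passed limma's test, at 5.77 ± 0.207 CPM in shArl4c and 2.79 ± 0.397 CPM in shControl. The summed level of 12 mesenchymal markers was 25279 to 25922 CPM in shArl4c and 41093 to 42596 CPM in shControl. Most of that sum came from Col1a1, Fn1 and Col1a2, and of the 11 mesenchymal markers tested 7 were lower, 2 higher (Pdgfra 1.69-fold and Pdgfrb 1.12-fold) and 2 did not pass (Vim and Twist1). The summed level of the 10 epithelial markers with a row (of 15) was 11.2 to 12.2 CPM in shArl4c and 11.1 to 14.9 CPM in shControl, with Cdh1 at 0 in every shArl4c library. The 4 endothelial markers with a row (of 8) summed to 4.13 to 4.95 CPM in shArl4c and 5.11 to 5.79 CPM in shControl. Neither of the 2 tested, Vwf and Pecam1, passed. The part of these marker levels in the results below was not tested.

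A total of 36 of the 60 genes reached the filter, 18 of them higher in shArl4c, 5 lower and 13 without a call. Over all 14740 tested genes, 36.9% were called, 18.9% higher and 18% lower, against 63.9%, 50% and 13.9% of the 36. A log2 fold change of at least 1 in size came with a call in 5 of the 36 genes (Il1rl1, Cxcl10 and Il4ra higher, Lifr and Il23r lower) and in 3.79% of all tested genes. The groups did not overlap in 27 of the 36 genes, where 46.8% of all tested genes had groups that did not overlap. The median log2 fold change was 0.28 over the 36 genes and 0.01 over all tested genes. Il23r and Il16 reached the filter through 1 of the groups only. By class of gene, of 10 tested chemokines 8 rose and 0 fell (0 at an unadjusted p under 0.05, and 0 with edgeR or DESeq2), of 19 tested receptors 10 rose and 4 fell, and of 7 tested interleukin and related genes 1 fell and 0 rose. Without shArl4c 3 the same numbers were counted for chemokines (8 higher) and for receptors (10 higher, 4 lower), but not for the same receptors: Il2rb and Il3ra lost their calls and Il17ra and Il6st gained calls. The count of receptors that fell was 2 without shArl4c 4, without shControl 1, without shControl 2 or without shControl 3, with CPM rescaled to equal totals and with DESeq2. Il23r was under the filter, and so not tested, without any 1 of the shControl libraries and with rescaled CPM.

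**Figure D1:**
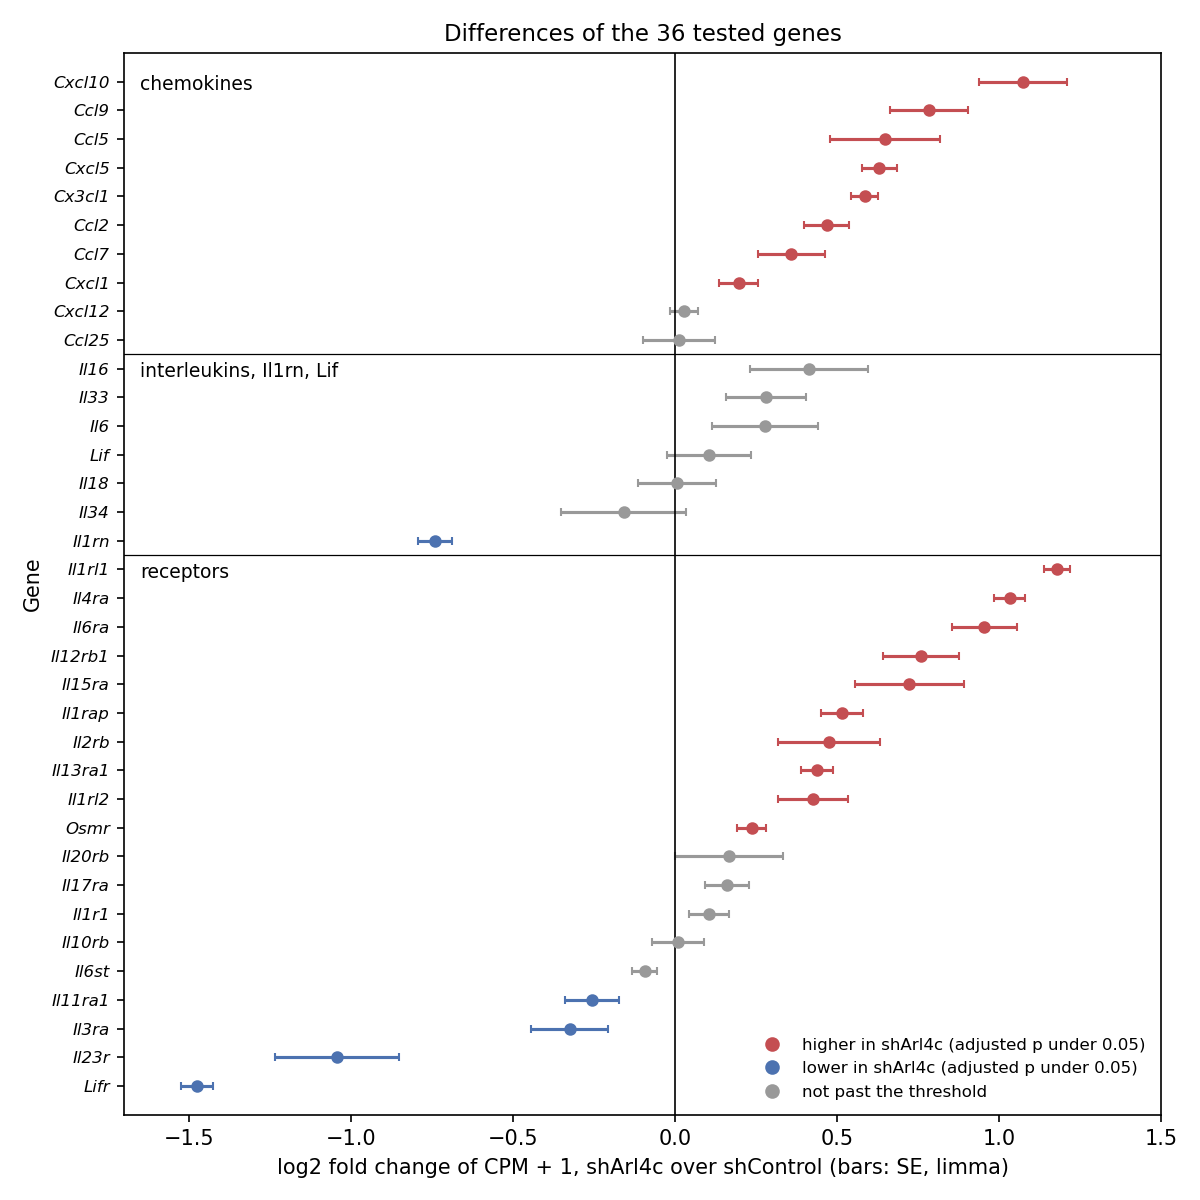
Log2 fold change of CPM + 1 (shArl4c over shControl, x axis) with its SE from limma for the 36 tested genes (y axis), grouped into chemokines, interleukins with Il1rn and Lif, and receptors. No chemokine lies left of 0, and the receptors spread from Lifr at -1.48 to Il1rl1 at 1.18.

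The chemokines fall into subfamilies that can be read in the coding sequence around the first cysteines. Coding stretches of 9 of the 10 tested chemokines are shown to set these subfamilies beside the values, from the mouse GENCODE M21 transcripts (GRCm38), with the codons of the first cysteine pair in capitals. Cxcl5 and Cxcl1 encode the sequence glutamate-leucine-arginine (ELR) just before the first cysteine, the mark of CXC chemokines that attract neutrophils, and Cxcl10 and Cxcl12 do not.
Cxcl5: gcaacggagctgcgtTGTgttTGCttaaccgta
Cxcl1: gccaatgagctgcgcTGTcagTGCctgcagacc
Cxcl10: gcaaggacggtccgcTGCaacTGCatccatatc
Cxcl12: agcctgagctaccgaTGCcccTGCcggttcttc
Cx3cl1: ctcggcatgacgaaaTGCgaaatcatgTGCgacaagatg
Ccl2: aacgccccactcaccTGCTGCtactcattc
Ccl7: cccaatgcatccacaTGCTGCtatgtcaag
Ccl9: caagactcttcagatTGCTGCctgtcctat
Ccl5: tcggacaccactcccTGCTGCtttgcctac
In the CXC chemokines 1 codon lies between the capitals, in Cx3cl1 3 codons, and in the 4 CC chemokines shown 0. For Ccl25 no such pair was found in the transcript used, and no stretch is shown.

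Both tested ELR chemokines were higher in shArl4c. Cxcl5 stood at 66.9, 67.1 and 64.4 CPM in shArl4c 2, 3 and 4, against 44.0, 40.8 and 42.3 CPM in shControl 1, 2 and 3. The groups were far apart compared with the spread of either, and the rise was 1.56-fold (log2 fold change 0.63, SE 0.05, limma adjusted p = 1.37e-08). Cxcl1 stood at 36.01, 34.8 and 34.0 CPM in shArl4c and 29.6, 30.9 and 30.5 CPM in shControl. That rise was 1.15-fold (limma adjusted p = 0.0162), and the call was lost without shArl4c 2 (limma adjusted p = 0.0657), without shControl 1 (limma adjusted p = 0.0688) and with DESeq2 (adjusted p = 0.120). Cxcl15, another ELR chemokine of mouse, was under the filter, with 23 reads in the shArl4c libraries together and 6 in those of shControl.

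Cxcl10, an interferon-induced chemokine that attracts T cells through CXCR3, had the largest log2 fold change of the tested chemokines. It stood at 7.26, 6.90 and 6.20 CPM in shArl4c, against 2.80, 2.89 and 2.40 CPM in shControl. Every shArl4c library exceeded every shControl library by more than the spread within either group (log2 fold change 1.07 with SE 0.13, 2.51-fold higher, limma adjusted p = 3.13e-06). Of its exon sequence in GENCODE M21, 5.91% overlaps the gene Art3 on the opposite strand. The sources used here do not say if strand was used in counting. Among the tested genes such overlaps were larger for Il16 (17.4%, with 2310044K18Rik and Stard5) and Il4ra (9.51%, with Gm44876), and Il1rap had 4.86% (Gm20319).

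Cx3cl1, encoding fractalkine, a membrane-bound chemokine that acts both as an adhesion molecule and as an attractant, stood at 140.3, 137 and 142 CPM in shArl4c, against 92.6, 92.5 and 93.2 CPM in shControl. The replicates were close, and the rise was 1.51-fold (log2 fold change 0.59, SE 0.04, limma adjusted p = 1.40e-09). Cxcl12, which retains haematopoietic cells in bone marrow through CXCR4, had the highest CPM of the chemokines and did not pass the test. Its values were 262, 252 and 276 CPM in shArl4c and 251, 265 and 258 CPM in shControl, so the groups overlapped (log2 fold change 0.03, SE 0.04, limma adjusted p = 0.666).

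Of 5 tested CC chemokines, which mainly attract monocytes and lymphocytes, 4 rose, where 18.9% of all tested genes did. Ccl2, the main attractant of monocytes, had 39.6, 35.5 and 38.2 CPM in shArl4c and 29.2, 25.4 and 26.6 CPM in shControl (log2 fold change 0.47 with SE 0.07, 1.40-fold higher, limma adjusted p = 2.14e-05). Its neighbour Ccl7, another monocyte attractant, stood at 15.3, 12.9 and 13.4 CPM in shArl4c and 9.37, 10.6 and 11.9 CPM in shControl. For Ccl7 the groups came close without overlapping (log2 fold change 0.36, limma adjusted p = 0.0102), and the call was lost without shArl4c 2 (limma adjusted p = 0.0593), without shControl 1 (limma adjusted p = 0.0743) and with DESeq2 (adjusted p = 0.0505).
Ccl9, which attracts myeloid cells through CCR1, had 8.93, 8.17 and 9.57 CPM in shArl4c, against 5.02, 4.91 and 4.30 CPM in shControl, a 1.87-fold rise (limma adjusted p = 3.18e-05). Ccl5, which attracts T cells, monocytes and eosinophils, had 2.90, 2.62 and 3.90 CPM in shArl4c and 1.255, 1.68 and 1.99 CPM in shControl (1.92-fold higher, limma adjusted p = 0.00531). In both genes every shArl4c library lay above every shControl library. Ccl25, known from thymus and gut as a ligand of CCR9, did not pass: its shArl4c libraries ranged from 15.4 to 22.3 CPM and its shControl libraries from 16.7 to 18.9 CPM, with the highest value in shArl4c 3. Its log2 fold change was 0.01 (SE 0.11), and -0.14 without shArl4c 3.

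Per kilobase of annotated exon, 4 chemokines stood at similar levels. In shArl4c these were Cxcl5 and Cx3cl1 at 35.5 CPM per kilobase each, Ccl2 at 33.2 and Cxcl12 at 32.2 CPM per kilobase. In shControl Cxcl12 led at 31.6 CPM per kilobase, with Ccl2 at 23.8, Cx3cl1 at 23.6 and Cxcl5 at 22.7 CPM per kilobase. Among the 6 chemokines under the filter, Ccl6 had 25 reads in shArl4c and 7 in shControl, Ccl17 23 in shArl4c and 12 in shControl, and Cxcl16 23 in shArl4c and 24 in shControl. The other 2, Cxcl14 and Ccl28, had 15 reads or fewer over the 6 libraries.

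**Figure D2:**
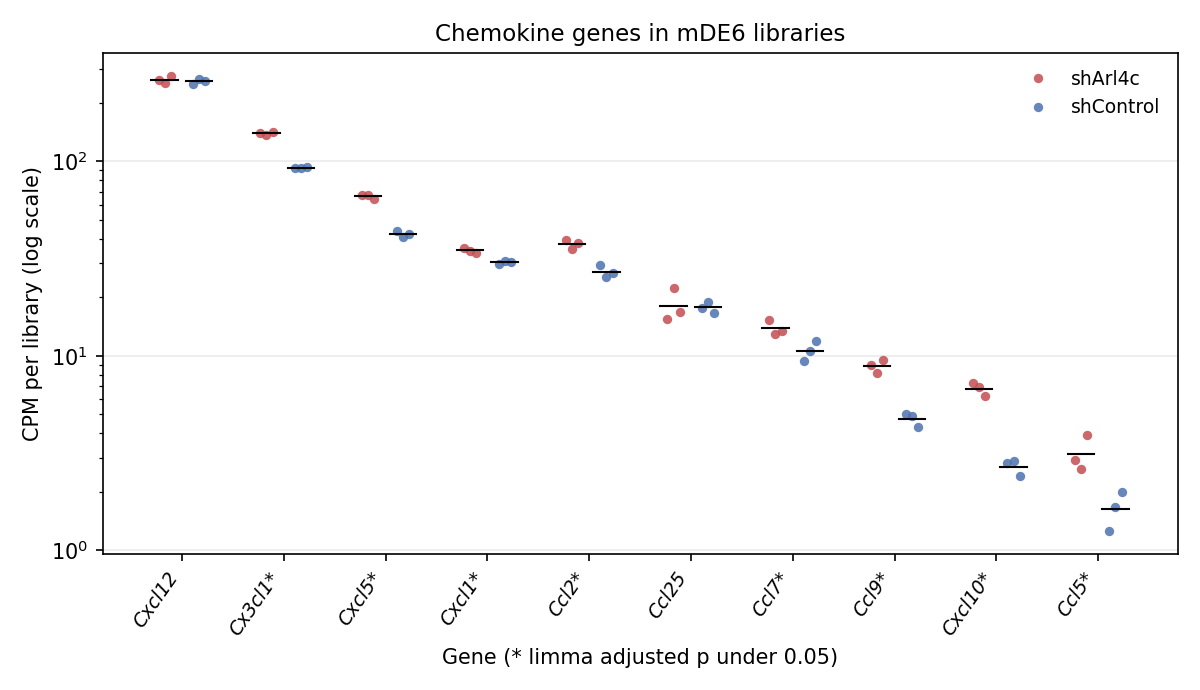
CPM per library on a log axis (y) for the 10 tested chemokine genes (x), with points for libraries, black lines for group means and shArl4c left of shControl. Points of the 8 genes marked with a star do not overlap between groups, and Cxcl12 and Ccl25 overlap.

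Upstream sequence was searched for motifs of factors known to act on chemokine genes. RefSeq promoters (GRCm38.p6, 250 bases before a start of the gene) were at hand for 27 of the 36 tested genes, 6 of them chemokines. Both strands were searched. Some genes have more than 1 start, and a gene was counted if any of its starts had a match. Of the 8 chemokines that rose, 4 could be searched (Cxcl10, Cxcl1, Ccl9 and Cx3cl1), and Cxcl5, Ccl2, Ccl7 and Ccl5 were not. Promoters of Cxcl10, Cxcl1 and Ccl9 are printed because these are the 3 of the 4 searched with a match to the kB motif bound by NF-kB. Capitals mark matches to that motif and, near the 5′ end of the Cxcl10 stretch, to the core of an interferon-stimulated response element (GAAA, any 2 bases, GAAA).
Cxcl10 (chr5:92348890-92349139, minus strand): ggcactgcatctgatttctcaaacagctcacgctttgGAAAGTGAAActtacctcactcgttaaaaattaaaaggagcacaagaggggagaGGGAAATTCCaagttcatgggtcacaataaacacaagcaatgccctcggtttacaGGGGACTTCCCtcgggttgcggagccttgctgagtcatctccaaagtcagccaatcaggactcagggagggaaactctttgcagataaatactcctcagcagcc
Cxcl1 (chr5:90890995-90891244, plus strand): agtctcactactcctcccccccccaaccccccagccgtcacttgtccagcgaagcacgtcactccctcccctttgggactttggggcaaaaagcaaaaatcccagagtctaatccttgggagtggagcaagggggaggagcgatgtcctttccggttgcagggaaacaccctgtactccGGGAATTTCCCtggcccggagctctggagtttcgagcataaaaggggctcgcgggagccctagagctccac
Ccl9 (chr11:83578637-83578886, minus strand): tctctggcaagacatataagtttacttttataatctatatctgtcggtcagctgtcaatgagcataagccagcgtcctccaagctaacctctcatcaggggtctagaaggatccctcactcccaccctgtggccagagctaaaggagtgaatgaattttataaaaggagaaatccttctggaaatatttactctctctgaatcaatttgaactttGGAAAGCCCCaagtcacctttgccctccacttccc
The longer capital runs in Cxcl1 and Cxcl10 hold a pair of overlapping matches each. In all, 7 of 27 tested genes with a promoter (25.9%) held a kB match, against 10.4% of the 10008 tested genes with a promoter. Apart from these 3 chemokines they were Il6, Lif, Il16 and Il1r1, none of which passed the test in shArl4c. Of the 12 genes that rose and had a promoter 3 held a kB match, and of the 5 that fell 0 did. The interferon element was matched in Cxcl10 alone (3.70% of 27 genes, against 3.28% of 10008), the AP-1 motif TGANTCA in 7 of 27 (25.9%, against 5.56%), and the STAT motif TTCNNNGAA in 0 of 27 (against 6.98%). AP-1 matches stood upstream of Cxcl10, Ccl9 and Il15ra, which rose, of Il1rn, which fell, and of Il6, Lif and Il16. For Il16 the kB and AP-1 matches stood upstream of different starts. In these genes no match of 1 motif overlapped a match of another. A match is a run of letters and was not tested for binding.

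Il1rn encodes the IL-1 receptor antagonist that blocks IL-1 at its receptor. Of the 7 tested interleukin and related genes taken by symbol, it was the only 1 called. It stood at 56.8, 53.1 and 59.996 CPM in shArl4c, against 97.1, 97.0 and 91.7 CPM in shControl. The groups were far apart, with a 1.68-fold lower level in shArl4c (log2 fold change -0.74, SE 0.05, limma adjusted p = 1.27e-09). The agonist gene Il1a was near 0, with 2 reads in shArl4c and 4 in shControl over 3 libraries each. The other IL-1 agonist gene, Il1b, had no row and could not be assessed. Il33, an alarmin and the ligand of the receptor encoded by Il1rl1, had 6.32, 6.30 and 6.505 CPM in shArl4c and 5.24, 5.45 and 4.55 CPM in shControl. These groups did not overlap, but the gene did not pass the test (log2 fold change 0.28, SE 0.12, limma adjusted p = 0.0832). Il18 overlapped between groups, at 6.37 to 8.42 CPM in shArl4c and 6.99 to 7.82 CPM in shControl.

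Of the gp130 cytokines, Lif stood at 4.79, 5.17 and 5.36 CPM in shArl4c and 4.65, 5.11 and 4.30 CPM in shControl, and Il6 at 2.25, 2.70 and 2.07 CPM in shArl4c and 1.55, 2.15 and 1.57 CPM in shControl. Both overlapped between groups and did not pass (log2 fold change 0.10 for Lif and 0.28 for Il6). Il11, a cytokine of bone and stromal cells, was under the filter with 11 reads in shArl4c and 16 in shControl. Il16, an attractant of CD4+ cells, had 0.944 to 1.65 CPM in shArl4c and 0.579 to 0.812 CPM in shControl (log2 fold change 0.41, limma adjusted p = 0.0851). Without shArl4c 2 it passed (limma adjusted p = 0.0477). Il34, a ligand of the CSF1 receptor, ranged from 1.12 to 2.45 CPM in shArl4c and from 1.61 to 2.66 CPM in shControl (log2 fold change -0.16, SE 0.19).

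**Figure D3:**
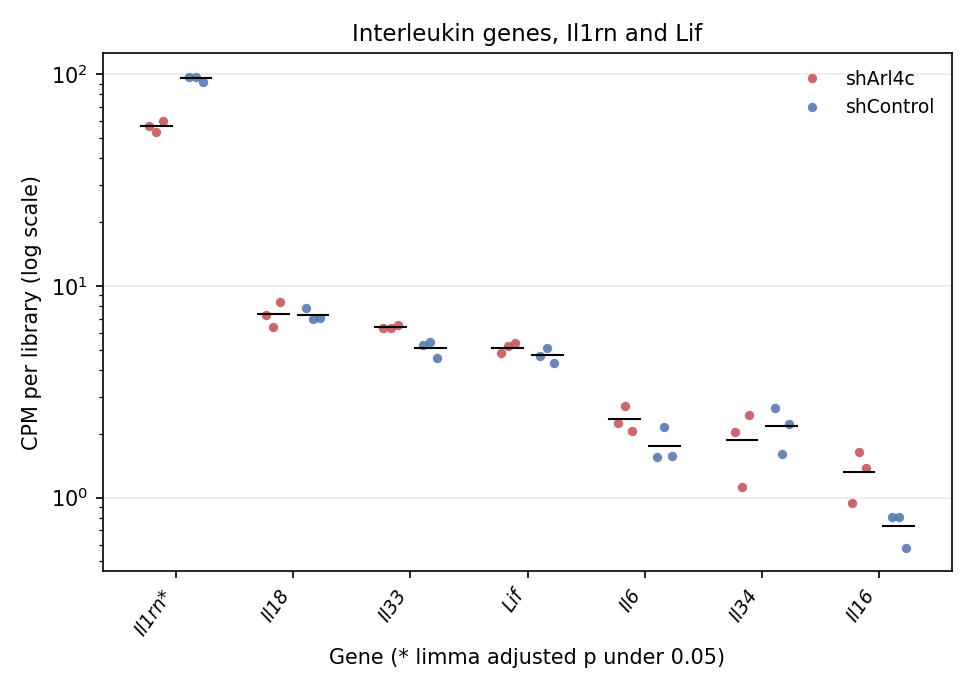
CPM per library on a log axis (y) for the 7 tested interleukin genes, Il1rn and Lif included (x), with shArl4c left of shControl and black lines for group means. Il1rn, at 53.1 to 59.996 CPM in shArl4c and 91.7 to 97.1 CPM in shControl, is the gene with a star.

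Among IL-1 family receptors 3 of 4 tested genes rose, where 18.9% of all tested genes did. Il1rl1, encoding ST2, the receptor of IL-33 and also its soluble decoy form, stood at 533, 509.9 and 511 CPM in shArl4c, against 226, 225 and 233 CPM in shControl. The groups were far apart, with a 2.27-fold higher level in shArl4c (log2 fold change 1.18, SE 0.04, limma adjusted p = 1.91e-14). On the log2(CPM + 1) scale this was the largest rise of the 36 genes, while by the ratio of mean CPM Cxcl10 rose more, 2.51-fold. Values per gene do not tell the membrane and soluble forms apart. Il1rap, encoding the accessory chain shared by the receptors of IL-1, IL-33 and IL-36, rose too: 32.2, 31.7 and 31.0 CPM in shArl4c and 22.2, 22.3 and 20.9 CPM in shControl (1.45-fold, limma adjusted p = 3.83e-06).
Il1rl2, encoding the IL-36 receptor, had 11.6, 11.8 and 13.5 CPM in shArl4c and 7.75, 9.21 and 9.76 CPM in shControl (1.38-fold higher, limma adjusted p = 0.00389). The groups did not overlap in any of these 3 genes. Il1r1, the signalling receptor of IL-1, overlapped between groups at 45.1, 51.0 and 47.6 CPM in shArl4c and 47.0, 43.0 and 43.3 CPM in shControl, and did not pass (log2 fold change 0.10, SE 0.06, limma adjusted p = 0.198). Il18r1 had 10 reads in shArl4c and 6 in shControl.

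The receptors of the gp130 family moved in different directions. Lifr, encoding the LIF receptor chain that pairs with gp130, had the largest fall of the 36 genes on the log2(CPM + 1) scale. By the ratio of mean CPM Il23r fell more, 5.66-fold, but Il23r reached the filter through shControl only. Lifr stood at 54.6, 58.8 and 54.3 CPM in shArl4c, against 151, 160.2 and 161 CPM in shControl, a 2.81-fold lower level (log2 fold change -1.48, SE 0.05, limma adjusted p = 1.38e-14). Osmr, encoding the oncostatin M receptor chain that pairs with the same gp130, was higher: 377, 412 and 370.1 CPM in shArl4c and 322, 326 and 334 CPM in shControl (1.18-fold, log2 fold change 0.24, SE 0.04, limma adjusted p = 0.000276).
The gp130 gene Il6st stood at 349.8, 347 and 352 CPM in shArl4c and 372, 366 and 383 CPM in shControl. Its groups did not overlap, but the difference was small (log2 fold change -0.09, SE 0.04) and missed the threshold (limma adjusted p = 0.0651). It passed without shArl4c 3 (limma adjusted p = 0.0168) and with edgeR on recovered reads (adjusted p = 0.0364).
Il6ra, encoding the binding chain of IL-6, was 2.08-fold higher, at 13.4, 14.9 and 13.5 CPM in shArl4c, against 6.27, 6.72 and 7.12 CPM in shControl (log2 fold change 0.96, SE 0.10, limma adjusted p = 3.44e-07). Il11ra1, the binding chain of IL-11, had 19.2, 20.3 and 17.8 CPM in shArl4c and 25.9, 21.0 and 22.3 CPM in shControl (1.21-fold lower, limma adjusted p = 0.0221). That call was lost without shArl4c 4 (limma adjusted p = 0.102), without shControl 1 (limma adjusted p = 0.165) and with DESeq2 (adjusted p = 0.0771). Of the distinct stretches of 50 bases in its longest coding transcript, 46.5% also stood in transcripts of the close copies Il11ra2 and Gm13305, so the split of its reads is uncertain.

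Receptor chains of IL-4 and IL-13 rose together. Il4ra, the signalling chain of both cytokines, was 2.07-fold higher at 100.4, 97.1 and 102 CPM in shArl4c, against 46.9, 49.6 and 48.2 CPM in shControl (log2 fold change 1.03, SE 0.05, limma adjusted p = 2.63e-12). Il13ra1, its partner in non-haematopoietic cells, had 119.9, 116 and 117 CPM in shArl4c and 89.0, 80.4 and 90.6 CPM in shControl (1.36-fold higher, limma adjusted p = 7.40e-07). In both, the lowest shArl4c library lay well above the highest shControl library. The decoy receptor gene Il13ra2 was under the filter, with 16 reads in shArl4c and 4 in shControl. Il2rg, the common gamma chain that pairs with IL4RA in lymphocytes, had 11 reads in shArl4c and 5 in shControl. Of the 50-base stretches of its transcript, 42.0% are shared with the gene Gm20489.

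Other receptor genes had lower counts. Il15ra, which presents IL-15 to neighbouring cells, had 6.24, 9.44 and 6.43 CPM in shArl4c and 4.58, 4.64 and 2.98 CPM in shControl (1.81-fold higher, limma adjusted p = 0.00277). Il12rb1, a chain of the IL-12 and IL-23 receptors, had 9.15, 11.02 and 9.64 CPM in shArl4c and 5.83, 5.65 and 4.88 CPM in shControl (1.82-fold higher, limma adjusted p = 3.70e-05). Its partner for IL-23, Il23r, went the other way, with 0.145, 0.375 and 0.383 CPM in shArl4c and 1.33, 2.29 and 1.49 CPM in shControl.
The Il23r values rest on 12 reads in shArl4c and 70 in shControl (log2 fold change -1.04, SE 0.19, limma adjusted p = 0.000226). Il23r reached the filter through shControl only, so it was tested because its shControl values were high. Il2rb, a chain of the IL-2 and IL-15 receptors, had 2.69 to 3.52 CPM in shArl4c and 1.75 to 2.32 CPM in shControl (limma adjusted p = 0.0234). Il3ra, the binding chain of IL-3, had 6.07 to 6.90 CPM in shArl4c and 7.53 to 9.75 CPM in shControl (limma adjusted p = 0.0388). Both calls were at the edge. For Il2rb the limma adjusted p was 0.0509 without shArl4c 3, 0.0584 without shArl4c 4, 0.0891 without shControl 1 and 0.0933 without shControl 2, and DESeq2 gave an adjusted p of 0.121. For Il3ra the limma adjusted p was 0.0587 without shArl4c 3, 0.0645 without shArl4c 4, 0.217 without shControl 2 and 0.0862 without shControl 3, 0.0519 with no filter and 0.0558 with CPM rescaled to equal totals, and DESeq2 gave an adjusted p of 0.130.
Il17ra, the shared IL-17 receptor chain, overlapped between groups at 40.1 to 43.8 CPM in shArl4c and 34.0 to 40.2 CPM in shControl (limma adjusted p = 0.0730). It passed without shArl4c 3 (limma adjusted p = 0.00985) and with CPM rescaled to equal totals (limma adjusted p = 0.0258). Il10rb, which pairs with several receptor chains of the IL-10 family, stood at 21.3 to 25.6 CPM in shArl4c and 21.8 to 24.7 CPM in shControl, and 29.0% of the 50-base stretches of its transcript are shared with the gene Gm21970. Il20rb stood at 1.15 to 1.499 CPM in shArl4c and 1.03 to 1.08 CPM in shControl and did not pass.

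**Figure D4:**
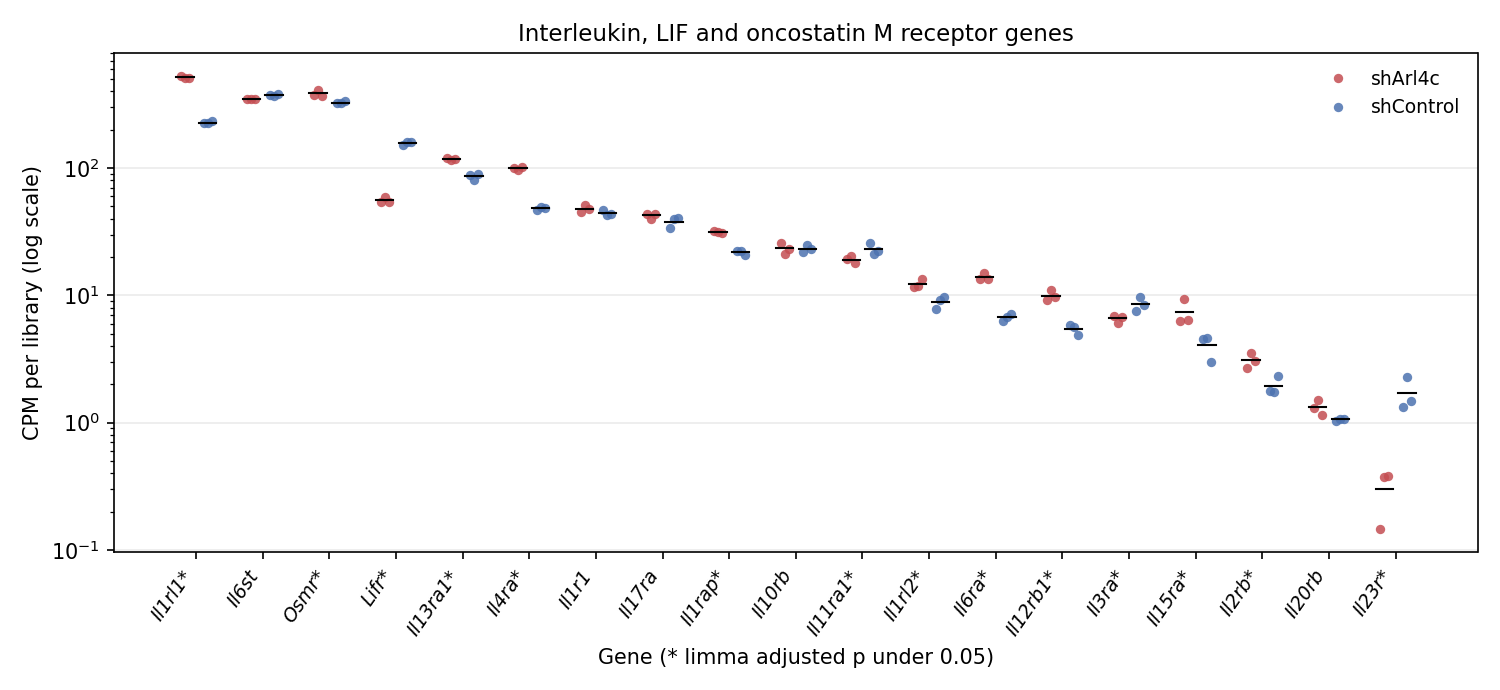
CPM per library on a log axis (y) for the 19 tested receptor genes (x), ordered by mean, with shArl4c left of shControl and black lines for group means. Il1rl1, Il4ra and Il6ra sit 2.07-fold to 2.27-fold higher in shArl4c, and Lifr, at 54.3 to 58.8 CPM, sits below its shControl values of 151 to 161 CPM.

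Measured per kilobase of annotated exon, the leading receptor genes changed order. In shArl4c Il1rl1 stood at 75.1 CPM per kilobase, ahead of Osmr at 31.9, Il13ra1 at 31.7 and Il6st at 31.5 CPM per kilobase. In shControl Il6st stood at 33.7 and Il1rl1 at 33.1 CPM per kilobase, with Osmr at 27.0, Il13ra1 at 23.3 and Lifr at 14.6 CPM per kilobase. Lifr was at 5.19 CPM per kilobase in shArl4c. Exon lengths came from GENCODE M21 and join all annotated transcripts of a gene, so the order between close genes is uncertain.

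The 24 genes under the filter held 6 to 75 reads each over the 6 libraries. When the filter was dropped, limma called 4 of them (16.7%), against 6.35% of the 7292 genes under the filter, and edgeR called the same 4, against 5.69% of those genes. Cxcl15 and Ccl6, given above, were higher in shArl4c, with log2 fold changes of 0.45 and 0.48. Il17d, a member of the IL-17 family, had 5 reads in shArl4c and 32 in shControl (log2 fold change -0.67, limma adjusted p = 0.00188). Il20ra, a receptor chain of IL-20 family cytokines, had no read in the 3 shArl4c libraries and 3 reads in each shControl library, a level at the floor. Of the 11 genes not named so far, Il7 had 41 reads in shArl4c and 34 in shControl, Il17rb 29 in shArl4c and 33 in shControl, and Il27ra, Il5, Il23a, Il15, Il2, Il2ra, Il17f, Il5ra and Il27 27 or fewer over the 6 libraries.

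The other genes of these pathways, given as lists of chemokine receptors, further cytokines and receptors, and signalling genes, were called in 53 of 102 tested cases (52%, against 36.9% of all tested genes). Of 5 tested chemokine receptors of 23, 40% were called, near the 36.9% of all tested genes: 3 did not pass, 0 fell and 2 rose. These were both receptors of CXCL12: the scavenger receptor gene Ackr3 (58.2 ± 1.40 CPM in shArl4c and 32.5 ± 0.810 CPM in shControl, limma adjusted p = 5.63e-10) and Cxcr4 (9.81 ± 0.999 CPM in shArl4c and 5.99 ± 0.180 CPM in shControl, limma adjusted p = 0.000192). Of 15 tested cytokine and receptor genes that the symbol patterns do not take, 7 rose, 1 fell and 7 did not pass (53.3% called). Clcf1, a cytokine gene whose product acts through LIFR and gp130, rose (61.7 ± 6.08 CPM in shArl4c and 47.1 ± 2.74 CPM in shControl). Il18rap, the accessory chain of the IL-18 receptor, was 2.11-fold higher (9.53 ± 0.517 CPM in shArl4c, 4.52 ± 0.765 CPM in shControl). The receptor gene Csf2rb, which reached the filter through shArl4c only, had 2.24 ± 0.242 CPM in shArl4c and 0.348 ± 0.0881 CPM in shControl, and its partner Csf2ra fell (6.40 ± 0.141 CPM in shArl4c, 11.2 ± 0.979 CPM in shControl).

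Signalling genes downstream of the receptors changed by smaller amounts. Of 23 tested JAK, STAT and SOCS genes and their regulators 10 rose, 2 fell and 11 had no call. That is 52.2% called, against 36.9% of all tested genes, and the median log2 fold change was 0.09. Stat2, which carries interferon signals, rose (81.8 ± 4.57 CPM in shArl4c, 48.96 ± 2.69 CPM in shControl). Jak2, a kinase of gp130 and other receptors, fell (78.2 ± 1.52 CPM in shArl4c, 101 ± 3.18 CPM in shControl, log2 fold change -0.36). Socs3, a feedback inhibitor of gp130 induced by STAT3, rose (61.8 ± 0.948 CPM in shArl4c, 47.5 ± 1.95 CPM in shControl, limma adjusted p = 1.31e-05). Without shArl4c 3, and with edgeR, 4 of this list fell.
Of 19 genes that carry signals of IL-1 and IL-17 receptors, 7 rose, 4 fell and 8 had no call (57.9% called). The median was 0.08. Only 4 rose without shArl4c 2, without shArl4c 4, without shControl 1 or without shControl 2. Tab2, an adaptor of the kinase TAK1, fell (125 ± 1.65 CPM in shArl4c, 171 ± 3.50 CPM in shControl), Peli2 rose (24.0 ± 2.20 CPM in shArl4c, 16.9 ± 0.810 CPM in shControl), and Irak4, the first kinase bound by MYD88, rose (19.3 ± 0.572 CPM in shArl4c, 15.0 ± 0.499 CPM in shControl). Of 18 NF-kB subunits and feedback genes 9 rose, 1 fell and 8 had no call (55.6% called), and the median was 0.16. Rel, encoding the subunit c-Rel, was the 1 that fell (36.2 ± 2.50 CPM in shArl4c, 54.98 ± 2.19 CPM in shControl). The deubiquitinase genes Otud7b (log2 fold change 0.28) and Cyld (0.22), both brakes on NF-kB, rose.

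Of 8 tested genes for the processing and release of IL-1 family proteins 5 rose, 1 fell and 2 had no call. That is 75% called, against 36.9% of all tested genes, and the median log2 fold change was 0.33. Gsdmd, encoding the pore-forming protein gasdermin D, was 1.79-fold higher (22.6 ± 0.716 CPM in shArl4c, 12.6 ± 0.963 CPM in shControl). Casp4, encoding a caspase that cleaves gasdermin D, was 2.07-fold higher (4.44 ± 0.538 CPM in shArl4c, 2.14 ± 0.307 CPM in shControl). Capn1, a calpain gene, was 1.53-fold higher (55.8 ± 3.05 CPM in shArl4c, 36.6 ± 2.11 CPM in shControl). The calpain gene Capn2 was the member that fell, with a log2 fold change of -0.24. Of 14 genes for the decay of cytokine mRNA 2 rose, 2 fell and 10 had no call, and the median was -0.04. That is 28.6% called, under the 36.9% of all tested genes. Zfp36l2, which binds AU-rich elements, rose (386 ± 10.5 CPM in shArl4c, 298 ± 4.51 CPM in shControl), and Arid5a, known to stabilise Il6 mRNA, fell 1.39-fold (19.5 ± 1.71 CPM in shArl4c, 27.1 ± 4.04 CPM in shControl). Among the 3 genes with the highest level of each list and not yet described, Mif (log2 fold change 0.17), Il17rc (0.24), Ube2v1 (0.16), Stat3 (0.15), Nfkb1 (0.14), Ninj1 (0.30) and Khsrp (0.13) rose, Jak1 (-0.21) and Rc3h2 (-0.16) fell, and Ube2n (0.08), Ptpn11 (-0.09) and Ccr10 (-0.25) did not pass. For the mRNA decay list, leaving out 1 library gave 1 to 2 higher and 1 to 3 lower: 1 rose without shArl4c 2, shArl4c 4, shControl 1 or shControl 2, and 1 fell without shArl4c 4.

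**Figure D5:**
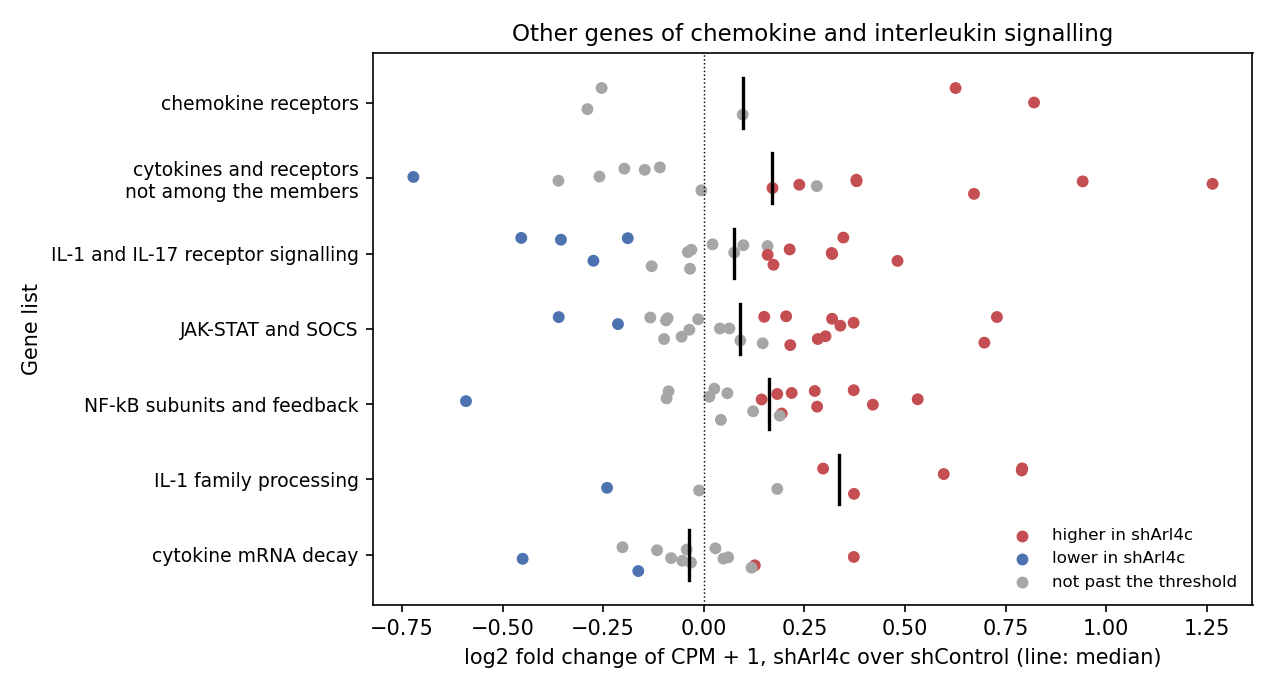
Log2 fold change of CPM + 1 (shArl4c over shControl, x axis) for tested genes of 7 lists of related genes (y axis), with black lines for list medians. Medians lie between -0.04 (cytokine mRNA decay) and 0.33 (IL-1 family processing), and single genes spread on both sides of 0 in most lists.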

How the data were processed

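RNA was measured by sequencing in 6 libraries of mDE6. The authors deposited 1 table of CPM per gene and library. Per the submitters' processing notes, the tools were RSEM 1.3.0, Trimmomatic 0.38, edgeR and Bowtie2 and the build was GRCm39; order and settings are not given. All CPM values were whole multiples of 1 read (100% within 0.001 of a read), so reads could be recovered. Columns were mapped to groups by the hairpin they name: the Arl4c columns misspell the gene, and their numbers (2 to 4) differ from those of the titles.

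Symbols came from a name table (21880 identifiers matched, 152 did not, and 21 took a symbol that a gene with more reads already held), and gene types, exon overlaps and lengths from GENCODE M21 (GRCm38), an older build. A gene averaging 1 CPM or more was fitted with limma 3.58.1 in R 4.3.3 (trend, robust) on log2(CPM + 1), and p-values were adjusted by Benjamini and Hochberg over all 14740 genes. Recovered reads were tested with edgeR 4.0.16, which called 36.5% of genes, and with DESeq2 1.42.0. Further alternatives changed the pseudocount (0.5, 5), filter and scaling, and left out each library. Genes outside the symbol patterns were named as the 3 of each list with the smallest p or the highest level, and Socs3, Clcf1 and Csf2ra after their values were seen; some genes that the rule names are not reported here. The genes, lists and tests were chosen with earlier results of these data known.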

Additional observations from a re-analysis of the deposited data

How the results depend on the processing

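Of the 23 genes called, 18 kept their call and direction under every alternative in which they were tested. Of these, Il23r was under the filter in 5 alternatives (without each shControl library, with CPM rescaled and with a mean of at least 5 CPM), and Ccl5 and Cxcl10 in the last. The others were Ccl7, Cxcl1, Il11ra1, Il2rb and Il3ra, and their values stand with the results. Counts of rises moved less: leaving out 1 library gave 15 to 18 of the tested genes higher, 6 to 8 chemokines higher and 9 to 10 receptors higher. Counts of falls were small and moved: leaving out 1 library gave 3 to 5 genes lower (2 to 4 receptors), 3 with CPM rescaled to equal totals (2 receptors) and 3 with DESeq2 (2 receptors). The direction of genes near 0 changed. When 1 library was left out, the log2 fold change ranged from -0.14 to 0.12 for Ccl25, from -0.0848 to 0.0920 for Il18, from -0.0564 to 0.0719 for Il10rb, from -0.00583 to 0.0580 for Cxcl12 and from -0.31 to 0.0433 for Il34. With edgeR it was -0.0012 for Il18 and -0.0021 for Il10rb. The cause of these changes was not tested. The median of all genes moved by no more than 0.04 under any scaling. Counts of the 2 classes were added after seeing the data. No paired analysis was possible because the shArl4c columns carry the numbers 2 to 4, which differ from those of their titles, so no number could be tied to a pair. Genes under the filter rest on 75 reads or fewer, which limits what could be detected.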
